A study of Mus musculus with 77 samples.

Results

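Livers that lacked IRP2, one of the iron regulatory proteins, were compared here with wild-type livers collected at ZT5, that is 5 h after lights on. The 6 mice are those of the Ireb2 line sampled at ZT5, 3 Ireb2-/- and 3 Ireb2+/+, out of 24 mice in the series, and they gave 12 of its 48 libraries. Each liver was read once as total RNA and once as ribosome-protected fragments (RPF), the pieces of mRNA left after nuclease treatment because a ribosome covered them. The remaining mice of the series belong to the same line at ZT12 and to an Aco1 (IRP1) line at both times, and their values are given below only beside those of the 6 livers. The ZT12 livers of the line also share the estimate of the spread in the main tests. All 6 animals were adult males on a C57BL/6J background, kept in 12 h light and 12 h dark with free access to food. The knockouts carried the Ireb2 tm1.2Mwh allele in every tissue from conception, and the controls were wild types of the same breedings, so a change in the liver and a change elsewhere in the body cannot be told apart. In whole liver, fewer cells of a type and less RNA per cell cannot be told apart either.

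IRP1 and IRP2 bind iron-responsive elements (IREs), short hairpins in the untranslated parts of certain mRNAs. Bound to a hairpin near the 5′ end, as in the mRNAs of the ferritin chains, they keep the ribosome from starting. Bound to hairpins behind the stop codon, as in the transferrin receptor mRNA, they protect the transcript from decay. Both proteins lose their grip on RNA in iron-rich cells, but in different ways. IRP1 persists as an enzyme, whereas IRP2 is removed through the ubiquitin ligase subunit FBXL5. The ratio of RPF to RNA of a gene, called translation efficiency (TE) and given on the log2 scale, is the readout that such a block would move.

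Counts over coding sequences were used for 10696 genes that passed a filter on low counts. Per liver, RNA libraries of the knockouts held 3648606 to 5249268 assigned reads and those of the wild types 2090890 to 5077419, and the RPF libraries held 4347026 to 11109075 and 8503809 to 14292376. Levels are CPM, counts divided by the library size after upper-quartile scaling. They are not corrected for gene length, so they serve to compare livers and not genes. The summed RNA level of the hepatocyte markers ran from 118672 to 137500 CPM in the knockouts and from 97455 to 116678 CPM in the wild types, while their RPF sums overlapped (158221 to 206665 CPM against 156825 to 189973 CPM) and 5 of the 8 markers had a negative RNA difference (6 of 8 were positive without wild-type liver 3, described next).

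One library pair stood apart. Wild-type liver 3 held RNA of pancreatic acinar cells, the cells that make digestive enzymes. Its acinar genes took 2.26% of the coding counts in RNA and 3.06% in RPF, against at most 0.0186% and 0.0141% in the other 5 livers. Of 22 acinar genes tested, all 22 were highest in this liver in both readouts and 21 were over 10 times the level in every other liver. Cel, the bile salt lipase of pancreatic juice, was at 0, 0 and 0.274 CPM of RNA in the knockouts and at 0.276, 0 and 1259 CPM in the wild types. The same liver was the highest of the 6 for 28.7% and the lowest for 28.4% of all genes in RNA, and the highest for 23.5% and the lowest for 30.1% in TE. Its RNA correlated with the other livers at 0.926 to 0.935 across genes, where other pairs reached 0.983. In RPF it was the highest for 17.2% and the lowest for 25%. There knockout liver 1 was the highest for 24.6% and the lowest for 18.2%. Among the other 23 mice of the series, acinar genes took at most 0.0525% in RNA and 0.153% in RPF. Calls that were lost without wild-type liver 3, and many of the list medians, are therefore also given without it.

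**Figure D1:**
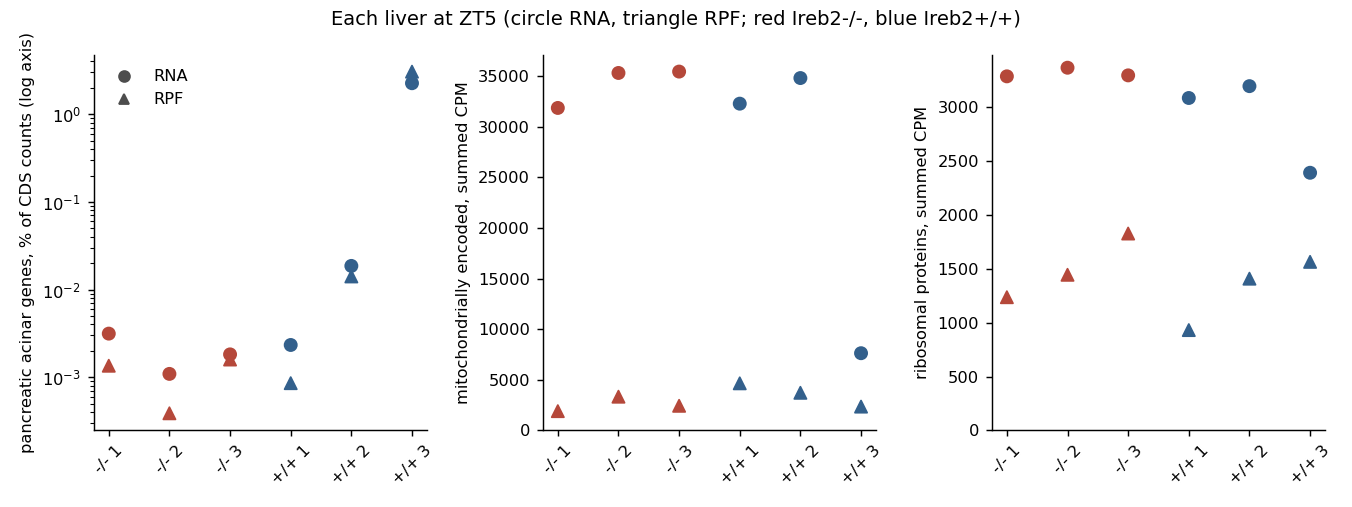
Each of the 6 livers at ZT5, with RNA as circles and RPF as triangles, knockouts in red and wild types in blue. The panels show pancreatic acinar genes as a percent of coding counts (log axis) and the summed levels of mitochondrially encoded genes and of cytosolic ribosomal proteins (CPM). Wild-type liver 3 is highest in acinar genes, at 2.26% in RNA and 3.06% in RPF, and lowest in mitochondrially encoded RNA, at 7626 CPM.

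The targeted gene checked the labels. Ireb2 encodes IRP2 and spans 54862658 to 54912534 of chromosome 9 in GRCm38.p6. Its RNA was at 120.35, 144.97 and 161.76 CPM in the knockouts and at 148.01, 124.57 and 71.5 CPM in the wild types. These RNA ranges overlapped, and the log2 fold change was 0.30 (adjusted p = 0.867, edgeR quasi-likelihood test with Benjamini-Hochberg adjustment, as for every adjusted p below). The transcript was thus still present in the knockouts, and its RNA counts behind the stop codon were 320, 301 and 441 in the knockouts and 414, 187 and 66 in the wild types. Footprints were at 33.2, 39.7 and 38.7 CPM in the knockouts and at 79.3, 78.1 and 66.6 CPM in the wild types. The 2 groups did not overlap, and RPF fell by 1.00 on the log2 scale (SE 0.13, adjusted p = 0.00294). TE was -1.86, -1.87 and -2.06 in the knockouts and -0.90, -0.68 and -0.11 in the wild types, a fall of 1.33 (SE 0.15, adjusted p = 1.07e-06). Without wild-type liver 3 the TE difference was -1.13 (adjusted p = 9.94e-13) and the RPF difference -1.07 (adjusted p = 0.00388). Ireb2 was the single gene of 10696 whose TE passed the threshold of 0.05, which is 0.00935% of those tested. The TE call was lost when the RPF and RNA libraries were not paired by mouse (-1.30, adjusted p = 0.543, edgeR) and with limma on TE per mouse (-1.37, adjusted p = 0.922), and the RPF call without knockout liver 1 (-0.93, adjusted p = 0.0532). At ZT12 the difference in TE was -0.84 (adjusted p = 0.1).

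The genes on both sides of Ireb2 on chromosome 9 were read next, since a targeted allele can carry flanking sequence of another strain. Of 20 neighbours tested, 0 passed in RNA, RPF or TE. Their RNA differences ran from -0.91 for Nrg4 to 0.92 for Tspan3, and their RPF differences from -0.71 for Dnaja4 to 0.36 for Scaper, the smallest adjusted p in RPF being 0.609.

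The partner protein and the ligase showed small differences. Aco1 encodes IRP1. Its footprints were at 462, 567 and 535 CPM without IRP2 and at 622, 521 and 607 CPM with it, overlapping ranges with a difference of -0.16 (SE 0.11, adjusted p = 0.773), and its RNA differed by -0.01. Fbxl5, the ligase subunit that senses iron and marks IRP2 for destruction, was at 21.1, 19.4 and 18.3 CPM of RPF in the knockouts and 20.8, 21.3 and 22.8 CPM in the wild types. Its TE difference of -0.35 was -0.10 without wild-type liver 3.

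Ferritin mRNAs carried more footprints in every knockout liver than in any wild-type liver, but neither passed the threshold. Ftl1 encodes the ferritin light chain, which helps to lay down the iron core. Its RPF level was 250, 241 and 268 CPM in the knockouts and 54.6, 114 and 23.7 CPM in the wild types. Its RNA was at 225, 182 and 216 CPM against 168, 210 and 342 CPM. The footprint ranges were far apart while the RNA ranges overlapped. TE of Ftl1 was 0.15, 0.41 and 0.32 without IRP2 and -1.62, -0.89 and -3.85 with it, a difference of 2.30 (SE 0.71, adjusted p = 0.635). Wild-type liver 3 was the lowest value, and without it the difference was 1.54 (SE 0.48, adjusted p = 0.82). The knockouts differed among themselves by far less than the wild types did.

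Fth1, the ferritin heavy chain that oxidises iron for storage, followed the same order. Its RPF level was 1144, 1367 and 1333 CPM in the knockouts and 550, 777 and 177 CPM in the wild types, and its RNA 827, 903 and 942 CPM against 879, 1094 and 664 CPM. RNA again overlapped and RPF did not. TE was 0.47, 0.60 and 0.50 against -0.68, -0.49 and -1.91, a difference of 1.52 (SE 0.43, adjusted p = 0.599) that was 1.11 without wild-type liver 3 (adjusted p = 0.82). At ZT12 the TE differences were 0.46 for Ftl1 and 0.54 for Fth1. The edgeR test found 0 genes of 10696 (0.0%) whose effect differed between ZT5 and ZT12 in RNA, RPF or TE, with 413, 426 and 562 genes at an unadjusted p under 0.05.

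The other mRNAs with a 5′ IRE had smaller differences. Alas2 encodes the erythroid form of the first enzyme of heme synthesis. Its TE was 0.39, 0.15 and 0.28 in the knockouts and 0.00, 0.04 and -0.35 in the wild types, groups that did not overlap and differed by 0.35 (SE 0.17, adjusted p = 0.707). The 4 erythroid markers tested, out of 10 listed, summed to 12.6 to 18.9 CPM of RPF in the knockouts and 20.3 to 34.9 CPM in the wild types, and their part in the Alas2 values was not tested. A two-sided exact permutation test of 3 livers against 3 cannot give a p under 0.1, so none is given for single genes. Slc40a1, the iron exporter ferroportin, was at 190, 203 and 222 CPM of RPF without IRP2 and at 181, 230 and 95.5 CPM with it, with a TE difference of 0.05. Epas1, the hypoxia-inducible factor HIF-2α, was at 189, 225 and 233 CPM of RPF in the knockouts and 243, 255 and 237 CPM in the wild types, a difference of -0.18 (adjusted p = 0.774), and its TE differed by -0.04. Over the 6 listed mRNAs with a 5′ IRE the median TE difference was 0.20 and without wild-type liver 3 it was 0.13, beside 0.01 over all genes tested. None of the 6 passed. TE was not overlapping and higher in 3 of the 6, a state that held for 6.31% of all genes tested, while TE was not overlapping and lower in 5.67%. After IRP1 loss at ZT5 the median TE difference of the same mRNAs was 0.41. There 6 were positive, where 4 were after IRP2 loss, and 3 were not overlapping and higher, beside 4.38% of all genes. At ZT12 in the Ireb2 line the median was 0.00.

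**Figure D2:**
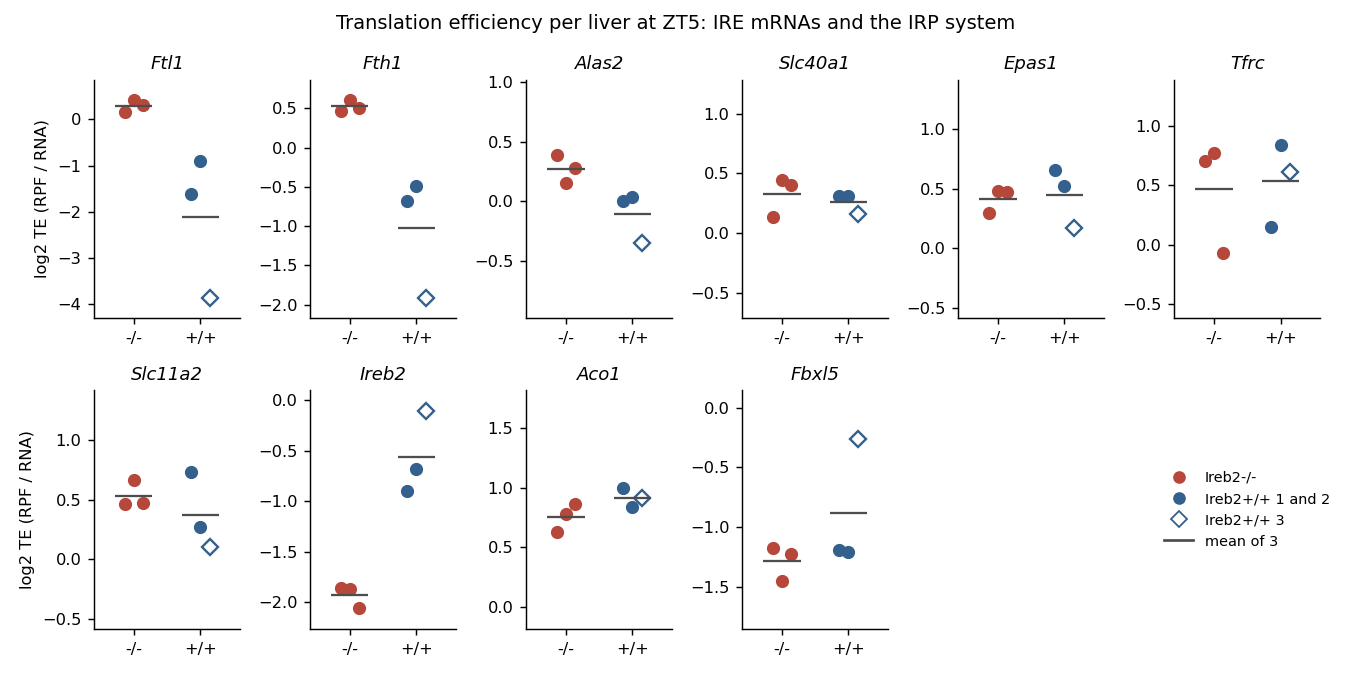
TE (log2 of RPF over RNA) of 5 mRNAs with a 5′ IRE, of Tfrc and Slc11a2 and of the IRP genes in each of the 6 livers, with its own axis range per gene. Red points are Ireb2-/-, blue points Ireb2+/+, the open diamond is wild-type liver 3 and the line is the mean of 3. The knockout points of Ftl1 and Fth1 lie above 0 and close together. Their wild-type points lie below 0 and farther apart, with wild-type liver 3 the lowest in each gene. Ireb2 has the opposite order, with the knockout points below the wild-type points.

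The mRNAs with IREs behind the stop codon gave no called change. Tfrc, the transferrin receptor, was at 12.4, 11.3 and 11.5 CPM of RNA without IRP2 and at 13.5, 8.59 and 30 CPM with it. The 2 groups overlapped, and the difference of -0.53 came to 0.00 without wild-type liver 3. Its footprints were at 20.3, 19.7 and 11 CPM against 15.1, 15.8 and 46.2 CPM. Slc11a2, the divalent metal importer DMT1, was at 15.5, 10.9 and 13.2 CPM of RNA against 11.6, 16.6 and 21.9 CPM, a difference of -0.27 (-0.02 without wild-type liver 3). A wider list of 33 tested mRNAs with reported IRE-like hairpins had 0 passing members in RPF, with a median of 0.04 beside 0.03 over all genes.

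Genes of iron handling beyond the IRE mRNAs were near the level of all genes. Of 23 genes of iron transport and storage, 0 passed in RPF and their median difference was -0.01. Of 21 genes of the hepcidin axis, the signalling that sets systemic iron release, 0 passed, with a median of 0.08. Hamp, the hepcidin gene, was at 1268, 691 and 1002 CPM of RPF in the knockouts and 1106, 1224 and 1645 CPM in the wild types, overlapping ranges with a difference of -0.43 (adjusted p = 0.725). Its copy Hamp2 was at 63.3, 44.4 and 11.4 CPM against 6.56, 8.58 and 20.7 CPM. Steap4, a plasma membrane metalloreductase, was at 100.35, 100.94 and 107.02 CPM of RPF against 127.14, 134.02 and 152.16 CPM. Those groups did not overlap, yet the difference of -0.42 did not pass (adjusted p = 0.626). The differences of Tfr2, Trf and Cp, which encode the hepatic transferrin sensor, transferrin and the ferroxidase ceruloplasmin, were -0.03, 0.10 and -0.12.

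Genes of iron use held no called member. Of 11 genes of heme synthesis and 28 of iron-sulfur cluster assembly, 0 passed, with median RPF differences of 0.10 and 0.06 (0.06 and -0.01 without wild-type liver 3). In RNA, 21 of the 28 iron-sulfur genes had a positive difference and the median was 0.17 (0.10 without that liver). Isca2, a late-acting assembly factor, was at 15.5, 13 and 13.2 CPM of RNA in the knockouts and 9.94, 9.2 and 8.66 CPM in the wild types, without overlap (0.56, adjusted p = 0.837). Targets of the hypoxia factors (15 genes, median RPF difference -0.05) and of the oxidative stress factor NRF2 (28 genes, 0.03) held no called gene either. Hmox1, the heme-degrading oxygenase among them, was at 24.7, 27 and 27.7 CPM of RPF against 24.1, 23.4 and 21 CPM (0.22).

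Across all genes, 1 passed in RNA (0.00935% of those tested), 7 in RPF (0.0654%) and 1 in TE. Without wild-type liver 3 it was 1 in each readout (0.00935% each): Gm5244 in RNA and Ireb2 in RPF and in TE. At an unadjusted p under 0.05 there were 603 genes in RNA, 817 in RPF and 750 in TE. With the fit limited to the 6 livers, so that the ZT12 livers no longer shared the estimate of the spread, 7 genes passed in RNA (0.0654%), 53 in RPF (0.496%) and 1 in TE (0.00935%). All 7 genes called in RPF with the ZT12 livers were among those 53.

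**Figure D3:**
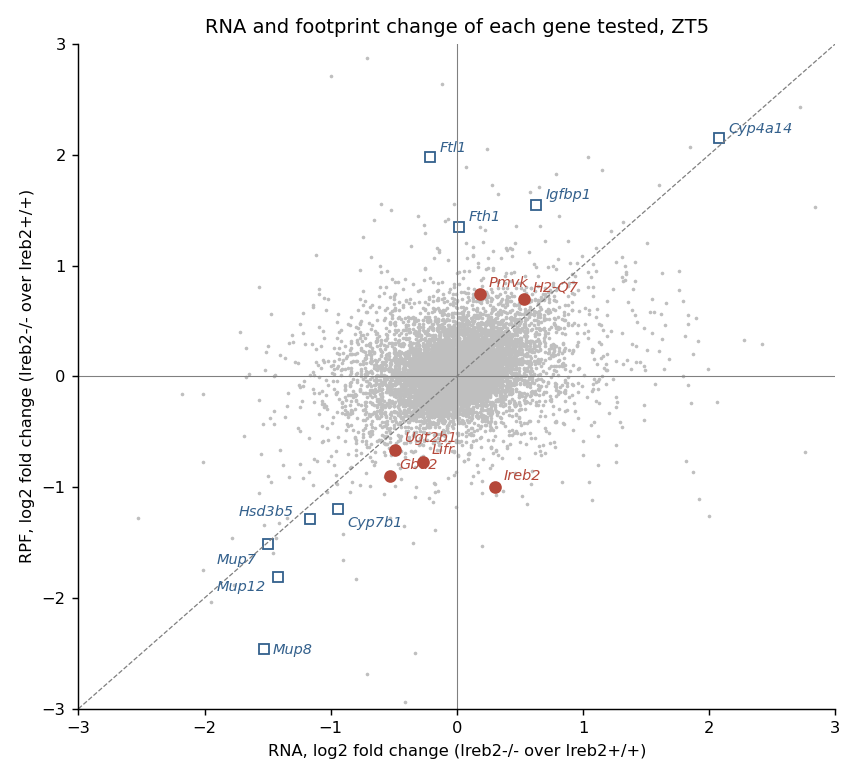
RNA difference against RPF difference (both log2, Ireb2-/- over Ireb2+/+ at ZT5), one point per gene. Filled red points passed in RPF, open squares are named genes that did not, and the dashed line marks equal differences. Of the genes tested, 10669 lie within the axes, which end at 3 in either direction, and 27 lie outside, Gm5244 among them. Ireb2 lies below the dashed line, and Ftl1 and Fth1 lie above it at 1.98 and 1.35.

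Gm5244 was the single gene called in RNA. It is annotated as a pseudogene at 12846804 to 12847248 of chromosome 19 in GRCm38.p6, and a pseudogene may take reads from a near-identical copy. It had 24, 20 and 26 RNA counts in the knockouts and 1, 0 and 0 in the wild types, a ratio of 52 with a 95% counting interval of 9.02 to 2081 (adjusted p = 0.000208). In RPF it had 6, 18 and 4 counts against 0, 0 and 0, which is at least 13.8-fold higher when 3 counts over the wild-type group are taken as the floor (adjusted p = 0.0122). The same split appeared at ZT12, with 8.73, 13.1 and 13.1 CPM of RNA in the knockouts and 0 in all 3 wild types.

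The remaining called genes were Lifr, Ugt2b1 and Gba2, which fell in RPF, and Pmvk and H2-Q7, which rose. Lifr encodes the receptor subunit for leukemia inhibitory factor. Its footprints were at 264, 301 and 303 CPM without IRP2 and at 439, 501 and 541 CPM with it. The groups were well apart, and RPF fell by 0.77 (SE 0.12, adjusted p = 0.0122). RNA was at 346, 327 and 370 CPM against 402, 480 and 373 CPM, a smaller difference of -0.27, and TE differed by -0.50 (adjusted p = 0.0625). Its TE passed with TMM scaling, the first run alone, all count columns or no low-count filter. It also passed without wild-type liver 1 or without wild-type liver 2. Without wild-type liver 3 the RPF difference was -0.70 (adjusted p = 0.0961).

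Ugt2b1 encodes a glucuronosyltransferase that conjugates steroids and drugs. It was at 740, 654 and 820 CPM of RPF in the knockouts and 1174, 1225 and 1097 CPM in the wild types, a fall of 0.66 (SE 0.12, adjusted p = 0.0382), beside an RNA difference of -0.49. Gba2, the glucosylceramidase outside the lysosome, was at 14, 12.1 and 10.2 CPM of RPF against 25, 21.8 and 20.7 CPM, a fall of 0.90 (SE 0.17, adjusted p = 0.0437), beside -0.53 in RNA. In both genes no knockout liver reached the lowest wild-type liver.

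Pmvk, the phosphomevalonate kinase of cholesterol synthesis, was at 76.8, 96.8 and 85.5 CPM of RPF in the knockouts and 57.1, 46.9 and 51.5 CPM in the wild types, a rise of 0.74 (SE 0.13, adjusted p = 0.0331). Its RNA overlapped, at 31.6, 44.5 and 31.8 CPM against 26, 24.5 and 45.6 CPM. H2-Q7, a non-classical class I molecule, was at 41.1, 45.7 and 45 CPM of RPF against 27.4, 24.2 and 29.7 CPM, a rise of 0.70 (SE 0.12, adjusted p = 0.0331). Its gene family is made of similar copies, so its reads may be shared with them. At ZT12 the RPF differences of Pmvk and H2-Q7 were 0.15 and 0.11, and those of Lifr and Gba2 both -0.35. Without wild-type liver 3 at ZT5, the adjusted p-values of Pmvk, H2-Q7, Ugt2b1 and Gba2 were 0.109, 0.0684, 0.0989 and 0.0989, with RPF differences of 0.74, 0.78, -0.70 and -0.96. Leaving out any 1 of the 6 livers ended the calls of Pmvk, H2-Q7 and Gba2, and any but knockout liver 3 that of Ugt2b1. The RPF calls of Lifr and Gm5244 were lost without knockout liver 1 or 2 or wild-type liver 2 or 3.

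**Figure D4:**
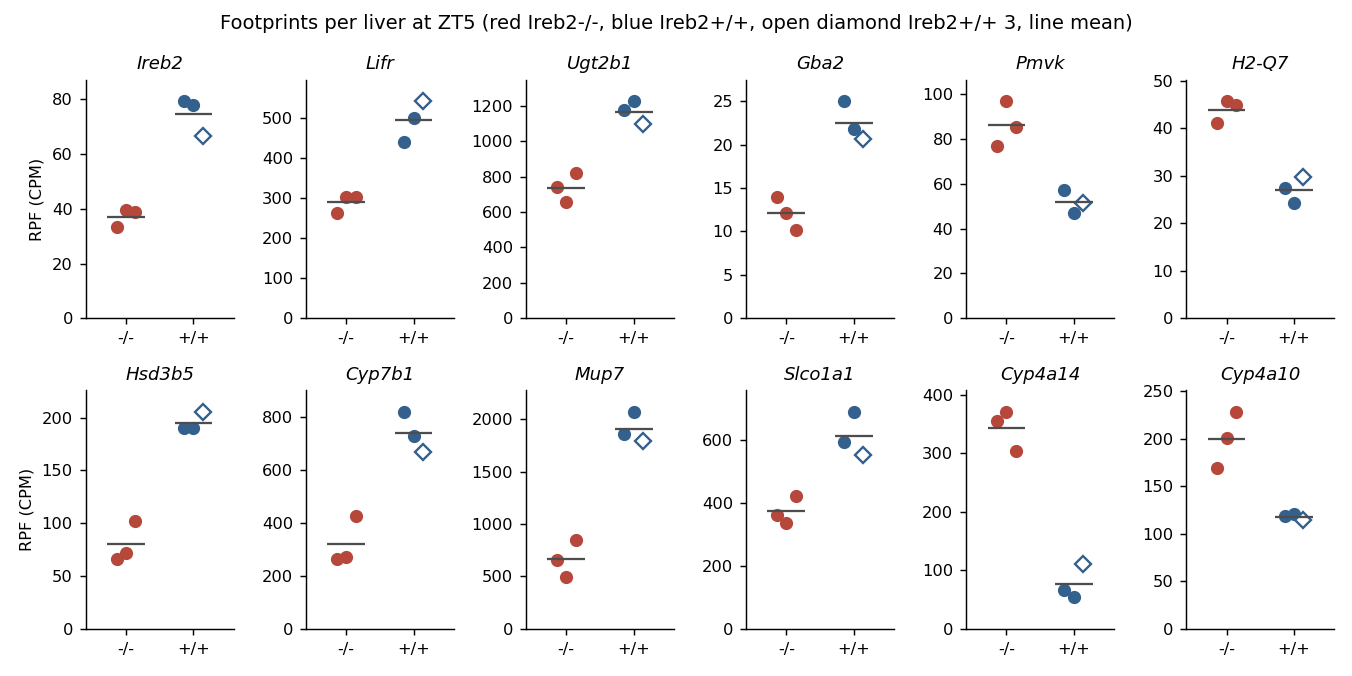
RPF level (CPM, axis from 0) of 6 called genes in the upper row and of 6 sex-biased genes in the lower row, one point per liver. Red points are Ireb2-/-, blue points Ireb2+/+, the open diamond is wild-type liver 3 and the line is the mean. In every gene shown, the 3 knockout points lie wholly on one side of the 3 wild-type points.

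Cholesterol and fatty acid synthesis were read as whole lists, since Pmvk belongs to the first. Of 28 tested genes of cholesterol synthesis, 1 passed in RPF, namely Pmvk, 27 had a positive difference and the median was 0.29 (0.25 without wild-type liver 3), beside 0.03 over all genes. Groups did not overlap in 5 of them (17.9%), where 9.71% of all genes were not overlapping and higher in RPF and 6.23% not overlapping and lower. Fdps, farnesyl diphosphate synthase, was at 21.9, 25.7 and 14 CPM in the knockouts and 10.7, 9.91 and 12.1 CPM in the wild types (0.93, adjusted p = 0.241). Idi1, which isomerises the building block that Fdps joins, was at 16.7, 14 and 11.8 CPM against 8.23, 7.87 and 8.07 CPM (0.80, adjusted p = 0.419). With the 6 livers alone, Fdps and Idi1 passed as well as Pmvk. Sqle and Lss, of the later steps, overlapped between groups. In RNA the list's median was 0.17.

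Of 22 genes of fatty acid synthesis, 0 passed, 20 had a positive RPF difference, the median was 0.34 (0.39 without wild-type liver 3), and 7 were not overlapping and higher (31.8%, beside the same 9.71%), while 1 was not overlapping and lower. Elovl5, an elongase of polyunsaturated fatty acids, was at 752, 944 and 633 CPM of RPF without IRP2 and at 490, 402 and 445 CPM with it (0.80, adjusted p = 0.419). It passed with DESeq2 and with the 6 livers alone. Scd1, the main hepatic desaturase, was at 8586, 8280 and 6355 CPM against 4691, 3989 and 5552 CPM (0.71), and Me1, which supplies NADPH, was at 265.40, 183.12 and 161.55 CPM against 131.33, 100.05 and 134.98 CPM (0.73). None of these 3 overlapped between groups.

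Class I antigen presentation, the family of H2-Q7, had 1 called member among 19 tested. In RPF the median was 0.21, with 8 members not overlapping and higher (42.1%), and in RNA it was 0.27 with 7 such members (36.8%), where 6.89% of all genes were not overlapping and higher in RNA and 4.69% not overlapping and lower. The classical molecules H2-K1 and H2-D1 were at 1497, 1678 and 1682 CPM of RPF against 1313, 1388 and 1338 CPM and at 497, 575 and 542 CPM against 443, 450 and 447 CPM, a difference of 0.27 each. Markers of macrophages were on the same side. All 11 had a positive RPF difference, with a median of 0.20 and 5 not overlapping and higher (45.5%, beside 9.71% of all genes), and 0 passed. C1qc, a complement chain made by Kupffer cells, was at 45.5, 46.1 and 38.9 CPM against 28.1, 35.9 and 32.8 CPM (0.43). Summed, the macrophage markers ran from 639 to 809 CPM of RPF in the knockouts and from 626 to 644 CPM in the wild types, which overlapped. Their part in the class I levels was not tested.

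Genes that differ between male and female mouse liver had differences mostly of one sign, although every animal was male. The lists of male-biased and female-biased genes were assembled after values of these data had been seen, so they describe a pattern and test none. All 38 male-biased genes tested had a negative RPF difference, with a median of -0.69 (-0.67 without wild-type liver 3), and 20 did not overlap between groups (52.6%, beside the 6.23% above). In RNA 35 of 38 were negative and the median was -0.41. The threshold was passed in RPF by 2 of them, Lifr and Ugt2b1, and in RNA by 0, and with the 6 livers alone by 12 and 4. Among these and the other genes below, those that passed with the 6 livers alone were named after their values were seen.

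Major urinary proteins, pheromone carriers that the liver secretes under growth hormone, were among the lowest. Mup7 was at 211, 189 and 287 CPM of RNA in the knockouts and 653, 638 and 658 CPM in the wild types, a difference of -1.50. Its footprints were at 657, 497 and 852 CPM against 1858, 2067 and 1790 CPM (-1.51), and at ZT12 at 437, 728 and 277 CPM against 1687, 2348 and 1041 CPM (-1.82). The wild types were above the knockouts at both times without overlap. Mup12 was at 9.41, 11.8 and 15.9 CPM of RNA against 28.2, 40.5 and 33.5 CPM (-1.42, adjusted p = 0.0501). These genes are near-identical copies that share reads, so the values of single members are uncertain.

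Members outside this family had negative differences as well. Hsd3b5, a male-specific steroid dehydrogenase, was at 65.8, 72.1 and 102 CPM of RPF without IRP2 and at 190, 190 and 205 CPM with it (-1.29, adjusted p = 0.628, and 0.00147 with the 6 livers alone). Cyp7b1, which hydroxylates oxysterols on the way to bile acids, was at 265, 272 and 427 CPM against 820, 731 and 667 CPM (-1.20, adjusted p = 0.294). Slco1a1, an organic anion importer, was at 362, 337 and 422 CPM against 595, 689 and 553 CPM (-0.71, adjusted p = 0.508, and 0.00461 with the 6 livers alone). Not every strongly male-biased gene took part. Cyp4a12a, Cyp2d9 and Elovl3 had RPF differences of -0.04, -0.10 and under 0.01 in size.

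Female-biased genes went the other way. Of 32 listed, 18 passed the filter on low counts, and a gene can pass it through the knockouts alone, so the shares below describe only those 18. Among them, 17 had a positive RNA difference (median 0.83, 10 not overlapping and higher, 55.6% beside 6.89% of all genes) and 16 a positive RPF difference (median 0.56, 6 not overlapping and higher, 33.3% beside 9.71%). Cyp4a14, a fatty acid ω-hydroxylase that also answers to PPARα, was at 177, 173 and 152 CPM of RNA in the knockouts and 33.4, 28.2 and 58.3 CPM in the wild types (2.08, adjusted p = 0.837, and 0.00129 with the 6 livers alone). At ZT12 its RPF level was 382, 59.4 and 262 CPM against 93.2, 34.1 and 262 CPM, with overlap. Its paralog Cyp4a10 was at 170, 201 and 228 CPM of RPF at ZT5 against 119, 120 and 114 CPM (0.76). The wider list of 28 PPARα targets had a median RPF difference of 0.06. Of these, 6 were not overlapping and higher (21.4%, beside 9.71% of all genes) and 0 not overlapping and lower. In the main test 0 passed, and with the 6 livers alone 2 did.

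The same lists had medians of the same sign in the other comparisons. At ZT12 the male-biased genes had medians of -0.36 in RNA and -0.39 in RPF, and after IRP1 loss at ZT5 of -0.37 and -0.39. The female-biased genes had 0.23 and 0.19 at ZT12 and 1.20 and 1.14 after IRP1 loss. The comparisons used different animals throughout.

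**Figure D5:**
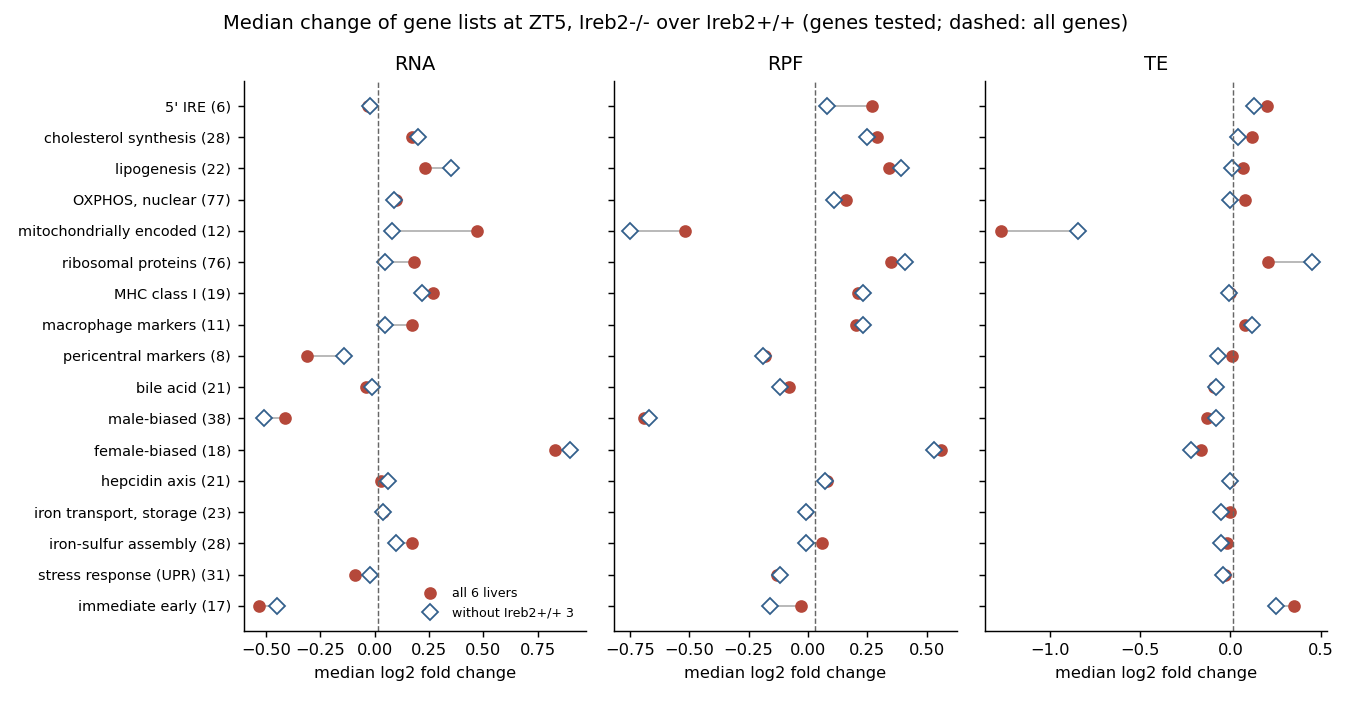
Median log2 difference (Ireb2-/- over Ireb2+/+ at ZT5) of gene lists in RNA, RPF and TE, with the number of genes tested in parentheses. Red points use all 6 livers, open diamonds leave out wild-type liver 3, and the dashed line is the median of all genes. Male-biased genes lie at -0.69 in RPF, female-biased genes at 0.83 in RNA, and mitochondrially encoded genes at -1.27 in TE, or -0.84 without wild-type liver 3.

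Zonation markers of the hepatocytes around the central vein had small negative differences. All 8 pericentral genes had a negative RPF difference, with a median of -0.18, 4 were not overlapping and lower (50%, beside 6.23% of all genes) and 0 passed. Glul, glutamine synthetase, was at 536, 492 and 467 CPM in the knockouts and 648, 601 and 631 CPM in the wild types (-0.33). Lgr5, a receptor of the Wnt pathway in the innermost ring, was at 15.6, 14.4 and 8.55 CPM against 17.2, 19.2 and 24.9 CPM (-0.67). Of 21 bile acid genes, 7 were not overlapping and lower (33.3%, beside the same 6.23%), with a median of -0.08 (-0.12 without wild-type liver 3). Abcg5, a subunit of a canalicular sterol exporter, was at 70.5, 80.8 and 80.4 CPM of RPF against 90.9, 108.81 and 105.04 CPM (-0.39, adjusted p = 0.592).

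Mitochondrially encoded genes and nuclear genes of oxidative phosphorylation had RPF medians of opposite sign, -0.52 and 0.16 (-0.75 and 0.11 without wild-type liver 3). The 12 mitochondrially encoded genes tested all had a lower TE in the knockouts, with a median of -1.27, and 10 were not overlapping and lower (83.3%, beside 5.67% of all genes), while 0 passed. Wild-type liver 3 held little of their RNA, and without it the median was -0.84. mt-Co1, the core subunit of cytochrome oxidase, was at 570, 949 and 693 CPM of RPF against 1232, 987 and 614 CPM and at 7261, 8165 and 8109 CPM of RNA against 7252, 7713 and 2366 CPM. mt-Nd5, of complex I, had TE of -3.91, -3.22 and -3.75 against -2.56, -3.05 and -1.69 (-1.17, adjusted p = 0.649, and -0.80 without wild-type liver 3). The list's TE median at ZT12 was 0.15. With DESeq2 at ZT5, mt-Atp8 of this list passed in TE.

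Of 77 nuclear genes of oxidative phosphorylation, 65 had a positive RPF difference, beside 55.7% of all genes, 29 were not overlapping and higher (37.7%, beside 9.71% of all genes) and 0 passed (3 with the 6 livers alone), with a median of 0.16. Atp5l, a membrane subunit of ATP synthase, was at 11.8, 7.91 and 14 CPM of RPF without IRP2 and at 3.35, 4.16 and 2.73 CPM with it (1.65, adjusted p = 0.341). Cox6c, a small cytochrome oxidase subunit, was at 102, 84 and 95.8 CPM against 59.6, 70.2 and 56.2 CPM. Of 76 cytosolic ribosomal proteins, 65 had a positive RPF difference (median 0.35, and 0.41 without wild-type liver 3) with 18 not overlapping and higher (23.7%, beside the same 9.71%) and 1 not overlapping and lower. Their summed RPF level overlapped, at 1236, 1444 and 1827 CPM against 931, 1408 and 1564 CPM, and at ZT12 the list's median had the opposite sign, -0.60. Many ribosomal proteins have processed copies that may take their reads. Over the 2108 genes of shortest genomic span the RPF median was 0.09, and over the 2107 of longest span -0.01. The part of gene span in the medians of these lists was not tested.

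The comparison with the IRP1 line asked which genes answered differently to the loss of either protein at ZT5. The difference between the effects passed for 0 genes of 10696 in RNA (0.0%, with 445 at an unadjusted p under 0.05 by edgeR) and for 2 genes each in RPF and TE (0.0187%). Those in RPF were Aco1 and Gba2 and those in TE were Aco1 and Ireb2. Without wild-type liver 3 the difference of Ireb2 did not pass in TE (-1.10, adjusted p = 0.0607) and passed in RPF (-1.12, adjusted p = 0.0443). Aco1 is the gene removed in the IRP1 line, so this holds the mirror image of the Ireb2 result. Gba2 fell in RPF without IRP2 and had a difference of 0.51 without IRP1. For Lifr the effects were -0.77 and -0.60.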

How the data were processed

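Livers of 24 mice were sequenced as total RNA and as ribosome footprints, and the 12 libraries of the 6 mice of the Ireb2 line at ZT5 were compared. The authors deposited counts, not normalized, for 25266 genes in 5 columns, of which the coding sequence column was used. The submitters' notes name cutadapt 3.5, Bowtie2 and STAR 2.70f. Runs of one library were summed: 7 libraries had 2 runs, whose counts over genes differed by no more than sampling noise (chi-square over its degrees of freedom, 0.99 to 1.04). In RPF these were 1 knockout and 3 wild-type libraries, and in RNA 2 and 1. The comparison of runs within a library does not address this imbalance between genotypes.

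Genes were filtered with filterByExpr (minimum count 10, minimum total 15), which kept 10696, and scaled by upper quartile. RNA and RPF were each tested with edgeR 4.0.16 (quasi-likelihood, R 4.3.3) over the 12 mice of the line, which share one estimate of the spread. TE was tested as the interaction of library kind and genotype with the mouse as a term, and TE per liver used a prior count of 0.5. The adjusted p (Benjamini-Hochberg over all genes tested) had to be under 0.05. DESeq2 1.42.0, limma 3.58.1, TMM scaling, other filters, other sets of mice, the first run alone, all count columns (added after seeing the data), a replicate block and leaving out each liver were alternatives. The script was tested on simulated data. Levels, list summaries and figures used Python 3.11.15. Intervals on counts cover counting error only. Each liver is a separate mouse.

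Named genes were those that passed, the target and its neighbours, the IRE mRNAs and list members. Others came from up to 10 genes per direction with the smallest unadjusted p among those whose livers did not overlap. Not all of these are named. Members and lists were chosen with earlier results of these data known. The lists of acinar, sex-biased, PPARα, ribosomal protein, nuclear oxidative phosphorylation and proteasome genes were added after values were seen. Gene names, chromosomes and coordinates come from RefSeq for GRCm38.p6, and the study's notes name the same major build.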

Additional observations from a re-analysis of the deposited data

Results flagged for a closer look

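The effect of IRP2 loss differed from that of IRP1 loss at ZT5, by the test of the difference itself (edgeR interaction term over both lines), in 4 values. For Aco1 the effect of IRP2 loss minus that of IRP1 loss was 2.20 in RPF (adjusted p = 1.88e-08) and 1.42 in TE (adjusted p = 3.01e-07), where Aco1 is the gene removed in the IRP1 line. For Ireb2 the difference in TE was -1.30 (adjusted p = 0.00949), the mirror case, and without wild-type liver 3 it was -1.10 and did not pass (adjusted p = 0.0607). For Gba2, which is a target of neither knockout, the difference in RPF was -1.41 (adjusted p = 0.0175), made of -0.90 without IRP2 and 0.51 without IRP1.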

How the results depend on the processing

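With 3 livers a side, counts of called genes were small and moved with most settings, while none of the 17 single-gene differences recomputed under the alternatives changed sign. In RNA, where 1 gene passed, the count was 4 with DESeq2, 2 with TMM, 2 with the first run alone, 2 without the low-count filter, 7 with the 6 mice alone and 0 with the stricter filter (edgeR, 221 genes at an unadjusted p under 0.05), which no longer tests Gm5244. In RPF, where 7 passed, it was 22 with DESeq2, 4 with all 24 mice, 2 with the first run alone, 53 with the 6 mice alone and 2 with the stricter filter. In TE, where 1 passed, it was 2 with DESeq2, TMM, all count columns or no filter, 4 with the first run alone, and 0 with unpaired libraries or limma per mouse. Leaving out 1 liver gave 1 to 4 genes in RNA (4 without wild-type replicate 1), 0 to 9 in RPF (0 without knockout replicate 1, 1 without knockout replicate 2 or wild-type replicate 2 or 3, 4 without wild-type replicate 1) and 1 to 5 in TE (4 and 5 without wild-type replicates 1 and 2). Without wild-type replicate 3, the effects at ZT5 and ZT12 differed in TE for 6 genes in place of 0, and the effects of IRP2 and IRP1 loss for 1 (Aco1) in place of 2 (Aco1 and Ireb2). The replicate numbers do not pair the livers, since correlations of same-numbered deviations at ZT5 were -0.09 to 0.04. With a replicate block, 27 genes passed in RNA (17 of them acinar), 25 in RPF (8 acinar) and 2 in TE. The causes were not tested.

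Pmvk, H2-Q7, Ugt2b1 and Gba2 each lost their call in 8 or 9 alternatives and Lifr in 5 of the alternatives for RPF, leaving out single livers among them. Ftl1, Fth1 and Alas2 passed in none of 17 alternatives for TE. The shallowest RNA library, of a wild type, held 2090890 reads, which limits the TE of genes with few counts.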

Other observations

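Several liver functions not described above held no called gene at ZT5 in the main tests, and the genes named here were chosen after their values were seen. Spp1, the secreted phosphoprotein osteopontin, was at 44.7, 23.1 and 22.8 CPM of RNA in the knockouts and 9.94, 11.7 and 15 CPM in the wild types (1.34, adjusted p = 0.228, edgeR). Aqp8, a hepatocyte water channel, was at 206.41, 229.01 and 132.43 CPM of RNA against 107.42, 77.3 and 81.9 CPM (1.08). Npr2, the guanylyl cyclase receptor of C-type natriuretic peptide, was at 37, 32.8 and 38.9 CPM of RNA against 72.1, 80.4 and 61.2 CPM (-0.97, adjusted p = 0.321, and 0.0222 with the 6 livers alone). Igfbp1, an insulin-suppressed binding protein of insulin-like growth factors, was at 43, 61.6 and 83.8 CPM of RPF against 25.8, 23 and 15.5 CPM (1.55, adjusted p = 0.539). Ass1, of the urea cycle, was at 1038, 1103 and 1052 CPM of RPF against 778, 639 and 801 CPM (0.53, adjusted p = 0.599, and 0.0168 with the 6 livers alone). None of these 5 overlapped between groups. With DESeq2, Aqp8 passed in RNA and in RPF, and Npr2 passed in RPF.

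Of the remaining lists, the RPF medians are given with all 6 livers and then without wild-type liver 3. Among metabolic lists they were 0.09 and 0.09 for 27 genes of glucose and glycogen metabolism, 0.03 and -0.01 for 28 of fat oxidation, and -0.01 and 0.00 for 28 of amino acid and urea metabolism. They were 0.01 and -0.07 for 42 genes of drug metabolism, where Ugt2b1 fell, 0.08 and 0.07 for 26 of the citric acid cycle and 0.08 and 0.02 for 31 plasma proteins. Among response and housekeeping lists they were 0.13 and 0.19 for 28 interferon-response genes, 0.05 and -0.01 for 29 acute-phase genes, -0.13 and -0.12 for 31 genes of the unfolded protein and integrated stress response, and 0.01 and 0.10 for 19 heat-shock genes. They were 0.09 and 0.10 for 21 clock genes, -0.01 and 0.11 for 45 translation factors and 0.02 and 0.01 for 36 proteasome genes. Of 23 genes of the growth hormone axis, Lifr fell and the medians were 0.02 and -0.05. Immediate early genes, 17 tested, had a median of -0.53 in RNA, beside 0.01 over all genes, with 12 negative, and of -0.03 in RPF and 0.35 in TE. Without wild-type liver 3 these were -0.45, -0.16 and 0.25. Gadd45a, a growth-arrest and damage-response gene, was at 4.03, 2.52 and 2.19 CPM of RNA in the knockouts and 4.97, 8.59 and 5.77 CPM in the wild types.

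Markers of other cell types of the liver were read as sums. RPF levels were 843 to 918 CPM in the knockouts and 778 to 891 CPM in the wild types for 10 endothelial markers, and 940 to 1119 CPM against 854 to 1033 CPM for 10 stellate cell markers, both overlapping. In RPF, 8 of the endothelial and 9 of the stellate markers had a positive difference, with medians of 0.10 and 0.19. Of these, 1 endothelial and 0 stellate markers were not overlapping and higher. The 4 cholangiocyte markers tested, of 7 listed, summed to 60.6 to 108.57 CPM of RPF against 38.7 to 53.2 CPM without overlap, but most of the sum is Spp1, described above. Their RNA sums overlapped, at 27.4 to 53.1 CPM against 16.6 to 28.9 CPM, and in RNA 2 of the 4 had a positive and 2 a negative difference. Summed RPF of 8 periportal markers was 8428 to 10878 CPM against 9434 to 10241 CPM, and the 5 genes of heme breakdown had a median of 0.06 (-0.01 without wild-type liver 3). None of 7 neutrophil markers, 1 of 6 B cell markers, 1 of 8 T and NK cell markers and 2 of 10 cell cycle markers reached the filter.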
